A study of Mus musculus with 8 samples.

Results

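The genes described here are 44 ribosome biogenesis factors and RNA polymerase I subunits, chosen by symbol alone from the 21812 gene symbols of one count table (the Nop, Utp, Rrp and Noc families, the Polr1 subunits, and Bop1, Pes1, Wdr12, Rrs1, Fbl, Ncl and Npm1). All 44 passed the filter on low counts and were among the 14229 genes tested. The table holds 8 RNA-seq libraries of mouse embryonic stem cells (mESC), the cultured cells of the early embryo, in 4 groups of 2. The groups are Mettl3 cKO (conditional knockout) and its control Mettl3 WT, and Virma cKO and its control Virma WT. Both controls have the genotype WT, and all groups were grown in a medium that induces primitive endoderm (PrE), a lineage that forms from the inner cell mass. Mettl3 is the enzyme that methylates adenosine in messenger RNA (N6-methyladenosine, m6A), and Virma is a large scaffold of the complex it works in. The labels used here name no Cre driver, inducing agent or clone number, and do not say that the 2 libraries of a group came from separate cultures, so p-values measure only the spread between these libraries, which may be technical.

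Ribosome production starts in the nucleolus, where RNA polymerase I transcribes the long precursor of the 18S, 5.8S and 28S ribosomal RNAs. Small nucleolar ribonucleoproteins (snoRNPs) modify and fold the precursor, the small subunit processome assembles around its 5′ part to make the 40S subunit, and a separate set of factors builds the 60S subunit around the rest. Stem cells carry large nucleoli, and the demand for these factors is tied to growth and translation rate.

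Library totals lay between 15568628 and 17306227 counts. The 2 Virma cKO libraries differed by less than their sampling noise, with a chi-square per degree of freedom of 0.914 over 14680 genes and 0.849 over the 44 genes of the set, against 1.31 to 2.84 over all genes in the other groups. They were therefore counted as 1 sample in the tests below, other than the alternatives with 8 separate libraries, and Virma cKO means carry no SD. Over the 505 genes with 10000 or more counts in the pair the ratio was 3.46. In the libraries labelled Mettl3 cKO, Mettl3 itself held 35.4 and 33.9 CPM (read counts scaled to a common library size), against 35.7 and 35.2 CPM in Mettl3 WT. That is no difference beyond the spread (log2 −0.04 ± 0.07, edgeR, adjusted p = 0.695), so the total Mettl3 count does not check the label, and every direction given below for Mettl3 cKO is that of the libraries so labelled. Virma held 70.8 and 73.8 CPM in Virma cKO, against 93.3 and 88.8 CPM in Virma WT (−0.33 ± 0.06, adjusted p = 0.000102, edgeR). Mettl3 was lower in Virma cKO too, at 34.1 and 33.6 CPM, against 45.8 and 44.3 CPM in Virma WT (−0.42 ± 0.09, edgeR, adjusted p = 0.000232). Between the controls, Mettl3 was higher in Virma WT than in Mettl3 WT (0.34 ± 0.07, edgeR, adjusted p = 0.000198). Virma was not called in Mettl3 cKO (0.08 ± 0.05, edgeR, adjusted p = 0.148). Log2 fold changes are given throughout with their standard error (SE), from edgeR's quasi-likelihood test on the counts with Benjamini-Hochberg adjustment over all genes tested, and a gene was called at an adjusted p under 0.05.

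Some markers of other cell states moved with the knockouts. Of all genes tested, 27.1% rose and 28% fell in Mettl3 cKO, and 26.2% rose and 26.1% fell in Virma cKO. Of 9 PrE markers, 8 fell in Mettl3 cKO and 9 in Virma cKO, with a summed level of 4930 to 4964 CPM in Mettl3 cKO, against 7717 to 7762 CPM in Mettl3 WT, and of 927 to 941 CPM in Virma cKO, against 5829 to 5877 CPM in Virma WT. Of 8 stem cell markers 3 rose and 4 fell in Mettl3 cKO, and 1 rose and 5 fell in Virma cKO. Their sums were 1833 to 1885 CPM in Mettl3 cKO, 1956 to 1974 CPM in Mettl3 WT, 1206 to 1219 CPM in Virma cKO and 1942 to 1975 CPM in Virma WT. Of 12 fibroblast markers tested 10 rose in Mettl3 cKO, and 11 rose and 1 fell in Virma cKO. The controls differed too, with 11 higher and 1 lower in Virma WT than in Mettl3 WT (median 1.53). Of all genes 25.4% were higher there and 22.2% lower. Against Virma WT, 1 fibroblast marker was higher and 8 were lower in Mettl3 cKO (median −0.44), so their rise there depends on the control. In that comparison 29.3% of all genes were higher and 29.2% lower. The 13 fibroblast markers of the list summed to 1188 to 1205 CPM in Mettl3 cKO, against 1072 to 1079 CPM in Mettl3 WT, and to 1893 to 1916 CPM in Virma cKO, against 1375 to 1385 CPM in Virma WT. Of 7 trophectoderm markers 3 rose and 2 fell in each knockout, with a median log2 value of −0.00 in Mettl3 cKO and 0.09 in Virma cKO. The trophectoderm sums were 802 to 837 CPM in Mettl3 cKO, 835 to 848 CPM in Mettl3 WT, 1108 to 1112 CPM in Virma cKO and 826 to 845 CPM in Virma WT. S100a4 (fibroblast) and Elf5 (trophectoderm) stayed under 1 CPM in all libraries, and no marker was at 0 throughout. The part of these states in the results below was not tested, and in bulk RNA fewer cells of a type and less RNA per cell cannot be told apart.

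The first question is how the ribosome biogenesis genes stood in each knockout. In Mettl3 cKO most of them were higher than in Mettl3 WT: 25 of 44 rose and 8 fell, led by Rrp15, Nop2, Polr1b and Polr1d. Of all genes tested, 27.1% rose and 28% fell. The median over the 44 genes was 0.23, against 0.01 over all genes, and single genes ran between −0.91 (Utp14b) and 1.01 (Rrp15). The libraries of Mettl3 cKO and Mettl3 WT did not overlap for 36 of the 44, as for 75% of all genes. Against the Virma WT libraries in place of Mettl3 WT, 19 of the 44 were higher in Mettl3 cKO and 11 lower, with a median of 0.07, where 29.3% of all genes were higher and 29.2% lower. Against Virma WT the rises of Utp3, Rrp8, Polr1f, Utp23, Rrp7a, Rrp12 and Utp15 and the fall of Utp11 were not called. The summed level of the 44 genes was 16030 and 16085 CPM in Mettl3 cKO, against 13497 and 13422 CPM in Mettl3 WT. Ncl and Npm1, the most abundant of them, made up 8733 and 8785 CPM of that sum in Mettl3 cKO, against 7182 and 7140 CPM in Mettl3 WT.

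In Virma cKO the balance was the other way: 12 of 44 rose and 21 fell, led by falls of Rrp9, Bop1 and Fbl. Of all genes tested, 26.2% rose and 26.1% fell, and the median was −0.11 over the 44 genes and 0.02 over all genes, with a range of −0.80 (Rrp9) to 0.53 (Polr1b). The libraries of Virma cKO and Virma WT did not overlap for 42 of the 44, as for 84.5% of all genes. With scaling by total count the split was 17 higher and 16 lower and the median 0.02, while the median of all genes moved to 0.15, a shift of nearly the same size. Shares of all genes higher or lower under that scaling are not given here, so splits under it stand without them. The 42 genes other than Ncl and Npm1 summed to 6454 and 6515 CPM in Virma cKO, against 6781 and 6804 CPM in Virma WT. The sum of Ncl and Npm1 was higher in Virma cKO, at 9285 and 9355 CPM, against 8665 and 8434 CPM in Virma WT.

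**Figure D1:**
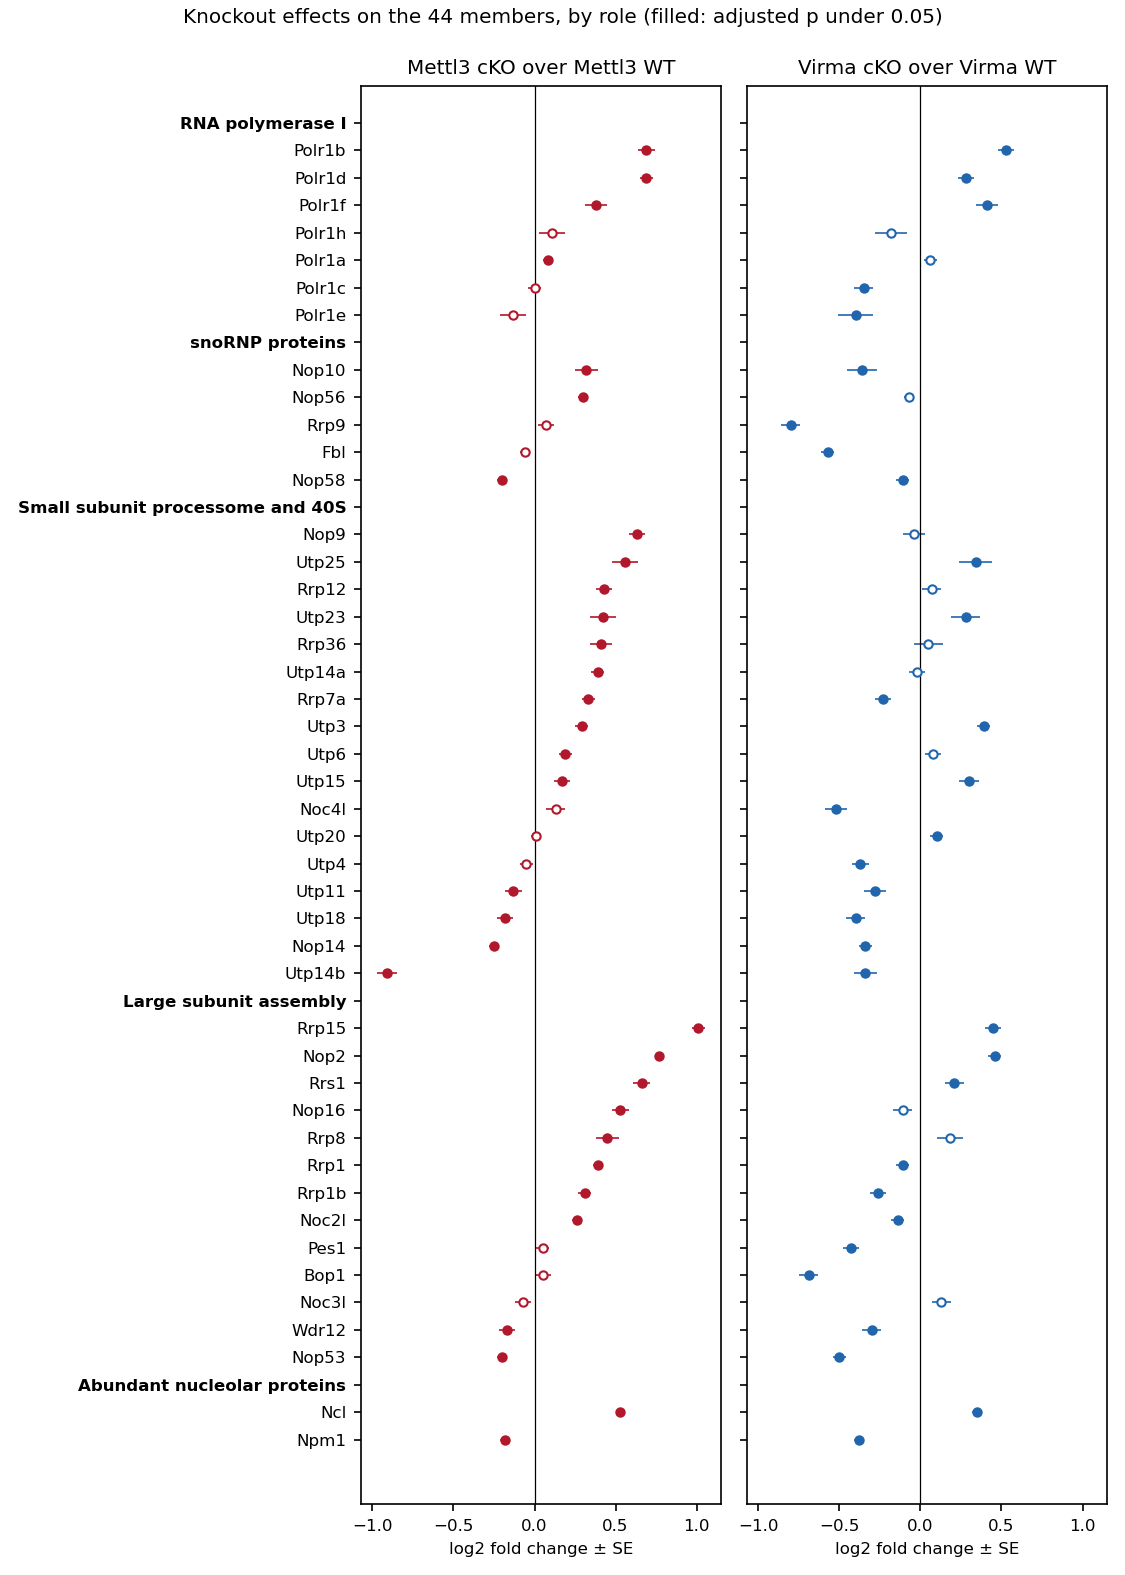
Log2 fold change (x axis, points with SE) of each of the 44 genes in Mettl3 cKO over Mettl3 WT (left) and Virma cKO over Virma WT (right), grouped by role, with filled points for an adjusted p under 0.05. Most filled points lie right of 0 on the left (25 against 8) and left of 0 on the right (21 against 12).

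Called in both knockouts, 11 genes were higher in both (13.7% of all genes were) and 8 were lower in both (14.2% of all genes were). The 11 were Rrs1, Ncl, Rrp15, Utp25, Polr1b, Utp3, Polr1d, Nop2, Polr1f, Utp15 and Utp23, and the 8 were Nop58, Wdr12, Utp14b, Utp11, Nop14, Nop53, Npm1 and Utp18. A further 5 genes, Nop10, Noc2l, Rrp1, Rrp7a and Rrp1b, rose in Mettl3 cKO and fell in Virma cKO, as 3.63% of all genes did, and none did the reverse (3.13% of all genes). With scaling by total count, which moves all Virma values up together, the falls of Nop58, Utp11, Rrp1, Noc2l and Rrp7a in Virma cKO were not called. Of the genes higher in both, Utp15 lost its call in Mettl3 cKO with DESeq2 (adjusted p = 0.109), without replicate 2 of Mettl3 cKO (edgeR, 0.0845) or without replicate 2 of Mettl3 WT (0.0622). In Virma cKO Utp23 lost its call with DESeq2 (adjusted p = 0.117), with both Virma pairs merged (edgeR, 0.0625) or without replicate 1 of Virma WT (0.0803), and Utp25 with DESeq2 (0.0527) or without replicate 2 of Virma WT (edgeR, 0.0575). Called in Mettl3 cKO alone, all of them higher, were 9 genes (Nop56, Polr1a, Rrp8, Utp6, Nop16, Nop9, Rrp36, Rrp12 and Utp14a), where 9.78% of all genes were higher in Mettl3 cKO alone. In Virma cKO alone Utp20 was higher (9.33% of all genes) and 8 genes were lower (8.26% of all genes), namely Polr1e, Noc4l, Fbl, Utp4, Rrp9, Pes1, Bop1 and Polr1c. Polr1h and Noc3l were called in neither.

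The sequence just upstream of the start site was read for 33 of the 44 genes, from RefSeq on build GRCm38.p6, and searched over 250 bases for CACGTG, which reads the same on both strands and is the E-box that MYC and MAX are known to bind. It was found in 5 of the 33 (15.2%), against 6.86% of 27025 genes in the promoter table and 9.93% of the 10854 genes of the count table with 80 or more counts. The 5 did not share a direction: Nop2 and Utp25 rose in both knockouts, Utp14b and Utp18 fell in both, and Rrp7a rose in Mettl3 cKO and fell in Virma cKO. Of the 33 genes 6 had several start sites, and a gene was counted if the E-box lay upstream of any of them. Utp25 held it before 1 of its 3 start sites, at −245. Below are the 120 bases upstream of the start site of 3 genes with the E-box, in capitals, and of 3 genes with large changes and no such letters in the 250 bases searched. They are shown so that genes that rose or fell can be read side by side. The windows lie at chr6:125131763-125131882 (plus strand) for Nop2, chr11:93885767-93885886 (minus) for Utp18, chr1:78658320-78658439 (plus) for Utp14b, chr1:186749359-186749478 (minus) for Rrp15, chr2:129100876-129100995 (plus) for Polr1b and chr9:106477189-106477308 (plus) for Rrp9.
Nop2: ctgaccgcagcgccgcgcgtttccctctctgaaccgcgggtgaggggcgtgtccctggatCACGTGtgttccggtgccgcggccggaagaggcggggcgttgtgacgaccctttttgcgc
Utp18: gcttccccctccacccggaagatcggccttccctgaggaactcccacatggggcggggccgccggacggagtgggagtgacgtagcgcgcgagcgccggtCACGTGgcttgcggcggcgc
Utp14b: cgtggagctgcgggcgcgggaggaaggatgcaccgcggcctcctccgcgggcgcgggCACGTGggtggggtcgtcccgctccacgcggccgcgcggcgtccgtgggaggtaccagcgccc
Rrp15: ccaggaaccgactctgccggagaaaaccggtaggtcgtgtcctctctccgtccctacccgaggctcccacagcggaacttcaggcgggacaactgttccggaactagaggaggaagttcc
Polr1b: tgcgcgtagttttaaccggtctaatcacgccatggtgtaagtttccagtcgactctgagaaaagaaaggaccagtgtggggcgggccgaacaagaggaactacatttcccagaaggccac
Rrp9: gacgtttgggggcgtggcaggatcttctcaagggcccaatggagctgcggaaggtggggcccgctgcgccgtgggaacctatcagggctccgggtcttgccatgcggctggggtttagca
The E-box starts 60 bases before the start site in Nop2, 20 in Utp18 and 63 in Utp14b. Myc, a driver of ribosome production, averaged 47.6 CPM in Mettl3 cKO, against 30.7 CPM in Mettl3 WT (0.63 ± 0.07, edgeR, adjusted p = 1.08e-07), and 50.3 CPM in Virma cKO, against 40.3 CPM in Virma WT. Its relative Mycn averaged 24.4 CPM in Virma cKO, against 66.7 CPM in Virma WT (−1.46 ± 0.10, edgeR, adjusted p = 7.42e-12), and 59.3 CPM in Mettl3 cKO, against 72.0 CPM in Mettl3 WT. Of the 12 genes of the MYC and MAX network listed, 1 rose and 5 fell in Mettl3 cKO and 3 rose and 5 fell in Virma cKO (4 and 3 with scaling by total count). Against Virma WT, 1 of the 12 was higher and 7 were lower in Mettl3 cKO, where 29.3% of all genes were higher and 29.2% lower. The highest value of the 12 there was 0.24, so the size of the Myc rise in Mettl3 cKO depends on the control.

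RNA polymerase I did not move as one unit. Of the 7 subunits in the set, 4 rose and none fell in Mettl3 cKO, and 3 rose and 2 fell in Virma cKO. Over all genes 27.1% rose and 28% fell in Mettl3 cKO, and 26.2% rose and 26.1% fell in Virma cKO. The counts by role below stand beside the same shares. Polr1b, the second largest subunit, which with Polr1a forms the active centre, held 142 and 136 CPM in Mettl3 cKO, against 84.8 and 87.4 CPM in Mettl3 WT. It held 140.1 and 135 CPM in Virma cKO, against 98.5 and 92.5 CPM in Virma WT. The groups did not overlap in either line, as for 75% of all genes in the Mettl3 line and 84.5% in the Virma line. Polr1b was 1.62-fold higher in Mettl3 cKO (0.69 ± 0.05, edgeR, adjusted p = 8.45e-12) and 1.44-fold higher in Virma cKO (0.53 ± 0.05, adjusted p = 1.78e-08). The largest subunit, Polr1a, held 396 and 404 CPM in Mettl3 cKO, against 376 and 379 CPM in Mettl3 WT, and 327 and 330.1 CPM in Virma cKO, against 311 and 318 CPM in Virma WT. Its rise in Mettl3 cKO was small (0.08 ± 0.03, edgeR, adjusted p = 0.0192) and lost its call with DESeq2 (adjusted p = 0.138), without replicate 2 of Mettl3 cKO (0.139) or without replicate 1 of Mettl3 WT (0.0718). Against Virma WT, where Polr1a was lower than in Mettl3 WT, its value in Mettl3 cKO was 0.34 ± 0.03 (edgeR, adjusted p = 5.80e-10). In Virma cKO it stood at 0.06 ± 0.04 (edgeR, adjusted p = 0.182) and was called with scaling by total count (0.19, adjusted p = 0.000138).

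Polr1c and Polr1d, the dimer that RNA polymerase I shares with RNA polymerase III, parted from each other. Polr1d held 273 and 278 CPM in Mettl3 cKO, against 174 and 167 CPM in Mettl3 WT, and 241 and 235 CPM in Virma cKO, against 203 and 188 CPM in Virma WT. It rose in both (0.69 ± 0.04 in Mettl3 cKO, edgeR, adjusted p = 3.32e-13, and 0.28 ± 0.05 in Virma cKO, adjusted p = 1.47e-05), and 21.9% of its 50-base windows also occur in another gene, so part of its count is uncertain. Polr1c held 106 and 110.3 CPM in Mettl3 cKO, against 108 and 109 CPM in Mettl3 WT, and 90.2 and 89.4 CPM in Virma cKO, against 115 and 114 CPM in Virma WT. The Mettl3 groups overlapped (−0.00 ± 0.04, edgeR, adjusted p = 0.962), while Polr1c fell in Virma cKO (−0.35 ± 0.06, adjusted p = 9.52e-06). After length and GC correction Polr1c was lower in Mettl3 cKO too (−0.18, edgeR, adjusted p = 0.000677).

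The remaining subunits are smaller or peripheral. Polr1f, of the stalk that meets the initiation factor Rrn3, held 56.9 and 51.4 CPM in Mettl3 cKO, against 42.3 and 41.0 CPM in Mettl3 WT, and 70.8 and 70.3 CPM in Virma cKO, against 53.7 and 51.9 CPM in Virma WT. It rose by similar amounts in both (0.38 ± 0.07 in Mettl3 cKO, edgeR, adjusted p = 3.02e-05, and 0.41 ± 0.07 in Virma cKO, adjusted p = 4.42e-05), but against Virma WT the libraries labelled Mettl3 cKO stood at 0.04 ± 0.06 (adjusted p = 0.653). Polr1e, one side of a dimer that aids initiation and elongation, held 29.5 and 28.0 CPM in Mettl3 cKO, against 33.5 and 29.2 CPM in Mettl3 WT, and 25.1 and 22.7 CPM in Virma cKO, against 32.9 and 30.1 CPM in Virma WT. It fell in Virma cKO (−0.40 ± 0.11, edgeR, adjusted p = 0.00284) and overlapped between the Mettl3 groups (−0.13 ± 0.08, adjusted p = 0.216). Without replicate 2 of Mettl3 WT, Polr1e was lower in Mettl3 cKO (−0.22, edgeR, adjusted p = 0.0176). Its dimer partner Polr1g is listed under its older symbol Cd3eap and so lies outside the set. Cd3eap held 63.3 and 58.6 CPM in Mettl3 cKO, against 47.8 and 44.6 CPM in Mettl3 WT (0.40 ± 0.06, edgeR, adjusted p = 1.01e-05), and 66.8 and 67.7 CPM in Virma cKO, against 58.2 and 62.2 CPM in Virma WT (0.16 ± 0.07, adjusted p = 0.0763). Polr1h, the subunit tied to RNA cleavage, held 36.6 and 34.2 CPM in Mettl3 cKO, against 30.3 and 35.2 CPM in Mettl3 WT, and 29.9 and 29.7 CPM in Virma cKO, against 34.1 and 33.2 CPM in Virma WT. It was not called in Mettl3 cKO (0.11 ± 0.08, edgeR, adjusted p = 0.245) or in Virma cKO (−0.18 ± 0.10, adjusted p = 0.146). Without replicate 2 of Mettl3 WT, Polr1h was called higher in Mettl3 cKO (0.23, edgeR, adjusted p = 0.0122), and in Virma cKO it was called lower with 8 separate libraries (−0.18, adjusted p = 0.0453) or with the line fitted on its own (−0.20, 0.0249).

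**Figure D2:**
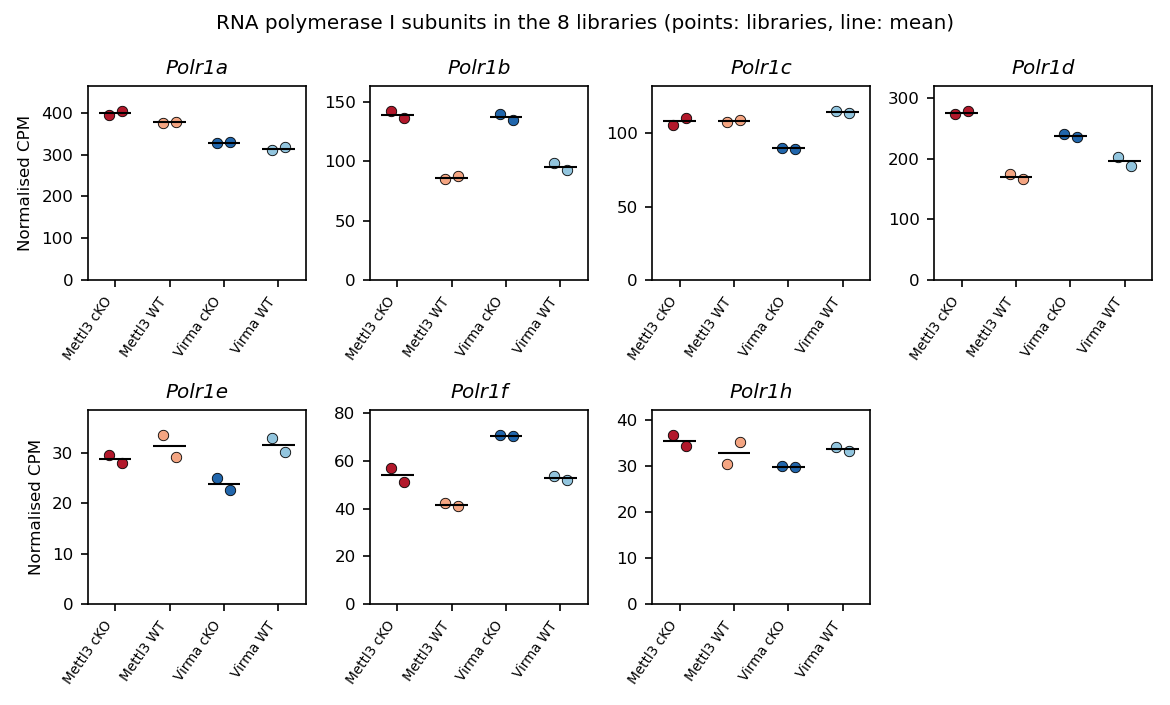
Normalised CPM (y axis, from 0) of the 7 RNA polymerase I subunits in each library, with points for libraries and a line for the group mean. Polr1b and Polr1d were higher in both cKO groups than in their WT groups, and Polr1c was lower in Virma cKO alone, at 90.2 and 89.4 CPM.

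The snoRNP proteins fell in Virma cKO, where 4 of 5 were lower and none higher, while in Mettl3 cKO 2 rose and 1 fell. Rrp9, which binds the U3 snoRNA that guides early cleavage of the precursor, held 97.3 and 99.7 CPM in Mettl3 cKO, against 93.8 and 93.7 CPM in Mettl3 WT, and 56.4 and 61.3 CPM in Virma cKO, against 104 and 102 CPM in Virma WT. Its fall in Virma cKO, to 0.572 of Virma WT (−0.80 ± 0.06, edgeR, adjusted p = 7.77e-11), was the largest fall of the set there. In Mettl3 cKO it was not called (0.07 ± 0.05, edgeR, adjusted p = 0.205), and it was lower after removal of a trend fitted on exon length and GC share (−0.21, adjusted p = 0.000327). Fbl (fibrillarin), the methyltransferase of the box C/D particles, held 330.0 and 329 CPM in Mettl3 cKO, against 344 and 344 CPM in Mettl3 WT, and 226 and 239 CPM in Virma cKO, against 343 and 347 CPM in Virma WT. It fell to 0.672 of Virma WT (−0.57 ± 0.04, edgeR, adjusted p = 7.13e-12). In Mettl3 cKO Fbl stood at −0.06 ± 0.03 (edgeR, adjusted p = 0.0659) and passed with DESeq2 size factors (−0.07, 0.0355) and with the length and GC trend removed (−0.13, 0.000229).

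Nop56 and Nop58, the paired core proteins of the same box C/D particles, went different ways in Mettl3 cKO. Nop56 held 684 and 681 CPM in Mettl3 cKO, against 544 and 562 CPM in Mettl3 WT, and 571 and 585 CPM in Virma cKO, against 602 and 607 CPM in Virma WT. It rose in Mettl3 cKO (0.30 ± 0.03, edgeR, adjusted p = 1.54e-09) and was not called in Virma cKO (−0.07 ± 0.03, adjusted p = 0.101). Nop58 held 339 and 325 CPM in Mettl3 cKO, against 392 and 368 CPM in Mettl3 WT, and 387 and 399.6 CPM in Virma cKO, against 429.6 and 419.7 CPM in Virma WT. It fell in Mettl3 cKO (−0.20 ± 0.03, edgeR, adjusted p = 2.30e-05), where the sign turned after length and GC correction (0.12, adjusted p = 0.00233). The length used for Nop58 was 10758 bases of merged annotated exons, which may not describe the transcript present. Its fall in Virma cKO (−0.11 ± 0.04, edgeR, adjusted p = 0.0201) lost its call with DESeq2 (0.0541), without replicate 1 of Virma cKO (0.0665) or without replicate 1 of Virma WT (0.0921), and stood at 0.01 with scaling by total count. The spans of Nop56 and Nop58 hold 5 and 4 snoRNA genes on the same strand, and 20% of the 50-base windows of Nop56 also occur in other genes. Nop10, a small protein of the box H/ACA particles that make pseudouridine, held 67.2 and 62.0 CPM in Mettl3 cKO, against 55.3 and 47.9 CPM in Mettl3 WT, and 39.0 and 39.7 CPM in Virma cKO, against 51.3 and 49.9 CPM in Virma WT. It rose in Mettl3 cKO (0.32 ± 0.07, edgeR, adjusted p = 0.000246) and fell in Virma cKO (−0.36 ± 0.09, adjusted p = 0.00141).

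Of the 17 factors of the small subunit processome and the 40S precursor, 10 rose and 4 fell in Mettl3 cKO, and 5 rose and 7 fell in Virma cKO. Against Virma WT, 5 were higher and 5 lower in Mettl3 cKO, and with scaling by total count 7 were higher and 5 lower in Virma cKO. The lowest value of the set in Mettl3 cKO was that of Utp14b, an intronless copy of Utp14a known in mouse for its role in spermatogenesis. Utp14b held 31.1 and 30.9 CPM in Mettl3 cKO, against 56.1 and 60.0 CPM in Mettl3 WT, and 53.1 and 55.6 CPM in Virma cKO, against 67.6 and 69.5 CPM in Virma WT. It fell to 0.534 of Mettl3 WT (−0.91 ± 0.06, edgeR, adjusted p = 3.37e-11) and to 0.791 of Virma WT (−0.34 ± 0.07, adjusted p = 0.000356). Its parent gene Utp14a rose in Mettl3 cKO (0.39 ± 0.04, edgeR, adjusted p = 1.13e-08), with 173 and 173 CPM in Mettl3 cKO, against 134 and 129 CPM in Mettl3 WT, and overlapped between Virma cKO (136 and 140.1 CPM) and Virma WT (142 and 136 CPM). Of the 50-base windows of Utp14b, 2.32% occur in other genes, with Acsl3 leading. Exons of Acsl3 on the same strand cover 3.2% of the exonic length of Utp14b, so their reads cannot be told apart there.

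Nop14 and Noc4l, which act together in 40S assembly in yeast, both fell in Virma cKO. Nop14 held 222 and 231 CPM in Mettl3 cKO, against 269.7 and 268 CPM in Mettl3 WT, and 225 and 229 CPM in Virma cKO, against 283 and 289 CPM in Virma WT. It fell in both (−0.25 ± 0.03 in Mettl3 cKO, edgeR, adjusted p = 7.37e-07, and −0.34 ± 0.04 in Virma cKO, adjusted p = 1.70e-07). Noc4l held 69.3 and 68.6 CPM in Mettl3 cKO, against 64.5 and 61.3 CPM in Mettl3 WT, and 52.5 and 54.3 CPM in Virma cKO, against 73.1 and 80.2 CPM in Virma WT. Its fall in Virma cKO was −0.52 ± 0.07 (edgeR, adjusted p = 1.46e-06). In Mettl3 cKO the value for Noc4l was 0.13 ± 0.06 (edgeR, adjusted p = 0.056), and against Virma WT it was −0.15 ± 0.06 (adjusted p = 0.0213), so its sign in the libraries labelled Mettl3 cKO depends on the control.

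Utp4 and Utp15 belong to UTP-A, a module of the processome that joins the precursor first. In Virma cKO Utp4 fell (−0.37 ± 0.05, edgeR, adjusted p = 4.28e-06) and Utp15 rose (0.30 ± 0.06, adjusted p = 0.000194). Utp6 and Utp18 belong to UTP-B, another early module. Utp18 held 86.8 and 85.3 CPM in Mettl3 cKO, against 95.2 and 100.1 CPM in Mettl3 WT, and 73.8 and 75.2 CPM in Virma cKO, against 97.2 and 98.5 CPM in Virma WT. It fell in both (−0.18 ± 0.05 in Mettl3 cKO, edgeR, adjusted p = 0.00202, and −0.40 ± 0.06 in Virma cKO, adjusted p = 5.21e-06), and with the length and GC trend removed the Mettl3 value was −0.04 and not called. Utp6 rose in Mettl3 cKO (0.19 ± 0.04, edgeR, adjusted p = 0.000119) and was not called in Virma cKO (0.08 ± 0.05, adjusted p = 0.135).

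Nop9, an RNA-binding protein needed for 18S processing in yeast, held 127 and 133 CPM in Mettl3 cKO, against 90.0 and 78.3 CPM in Mettl3 WT, and 95.3 and 98.8 CPM in Virma cKO, against 98.7 and 101 CPM in Virma WT. It rose in Mettl3 cKO (0.63 ± 0.05, edgeR, adjusted p = 5.38e-10), and the Virma groups overlapped (−0.04 ± 0.07, adjusted p = 0.595). Exons of the opposite-strand gene Cideb cover 29.9% of the exonic length of Nop9, so without a stated strand setting its reads cannot be told apart from those of Cideb there. Utp3, a processome protein, held 209 and 203 CPM in Mettl3 cKO, against 165 and 171 CPM in Mettl3 WT, and 261 and 256 CPM in Virma cKO, against 200.0 and 195 CPM in Virma WT. It rose in both (0.29 ± 0.04 in Mettl3 cKO, edgeR, adjusted p = 2.82e-07, and 0.39 ± 0.04 in Virma cKO, adjusted p = 3.59e-08), though against Virma WT the value for Mettl3 cKO was 0.06 (adjusted p = 0.165). The other 7 factors of this group ran between −0.13 (Utp11) and 0.56 (Utp25) in Mettl3 cKO, and between −0.28 (Utp11) and 0.34 (Utp25) in Virma cKO. Of these, the fall of Utp11 in Mettl3 cKO (edgeR, adjusted p = 0.0482) was lost under most alternatives, among them DESeq2 (adjusted p = 0.165) and leaving out replicate 2 of Mettl3 cKO (0.483). The rise of Utp20 in Virma cKO (0.10 ± 0.04, edgeR, adjusted p = 0.0274) was lost with DESeq2 (0.149), with the length and GC trend removed (0.693) and without replicate 2 of Virma WT (0.106).

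Factors of 60S assembly held the largest rises in Mettl3 cKO. Of 13, 8 rose and 2 fell in Mettl3 cKO, and 3 rose and 7 fell in Virma cKO (5 and 5 with scaling by total count). Against Virma WT, 8 were higher and 4 lower in Mettl3 cKO. Rrp15, a nucleolar factor of early 60S precursors, held 153 and 157 CPM in Mettl3 cKO, against 78.1 and 75.1 CPM in Mettl3 WT, and 120.4 and 124 CPM in Virma cKO, against 87.1 and 91.7 CPM in Virma WT. The rise was 2.02-fold in Mettl3 cKO (1.01 ± 0.04, edgeR, adjusted p = 7.79e-15) and 1.36-fold in Virma cKO (0.45 ± 0.05, adjusted p = 2.27e-07). Nop2, a cytosine methyltransferase of 28S ribosomal RNA, held 489.7 and 484 CPM in Mettl3 cKO, against 289 and 279.9 CPM in Mettl3 WT, and 387 and 391 CPM in Virma cKO, against 282 and 281 CPM in Virma WT. Its rises were 1.71-fold (0.77 ± 0.03, edgeR, adjusted p = 6.78e-16) in Mettl3 cKO and 1.38-fold (0.46 ± 0.04, adjusted p = 1.40e-10) in Virma cKO. Both controls of Nop2 stood at nearly the same level, and its rise in Mettl3 cKO was 0.79 ± 0.03 against Virma WT (edgeR, adjusted p = 3.82e-16).

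Rrs1, which helps to load the 5S particle, held 147 and 145 CPM in Mettl3 cKO, against 87.4 and 97.0 CPM in Mettl3 WT, and 152 and 157 CPM in Virma cKO, against 129 and 137 CPM in Virma WT. It rose in both (0.66 ± 0.05 in Mettl3 cKO, edgeR, adjusted p = 3.61e-11, and 0.21 ± 0.06 in Virma cKO, adjusted p = 0.00228), and against Virma WT its rise in Mettl3 cKO was 0.13 ± 0.05 (adjusted p = 0.0162). Nop53, which in yeast brings the exosome to the 60S precursor, held 233 and 228 CPM in Mettl3 cKO, against 262 and 269 CPM in Mettl3 WT, and 179 and 176 CPM in Virma cKO, against 250.3 and 249 CPM in Virma WT. It fell in both (−0.20 ± 0.03 in Mettl3 cKO, edgeR, adjusted p = 1.13e-05, and −0.50 ± 0.04 in Virma cKO, adjusted p = 5.70e-10).

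Pes1, Bop1 and Wdr12 form the PeBoW complex, which is needed to mature 28S and 5.8S ribosomal RNA, and all 3 fell in Virma cKO. Bop1 held 85.3 and 86.8 CPM in Mettl3 cKO, against 86.8 and 79.5 CPM in Mettl3 WT, and 65.9 and 67.8 CPM in Virma cKO, against 109 and 107 CPM in Virma WT. Pes1 held 269 and 280.3 CPM in Mettl3 cKO, against 255 and 273 CPM in Mettl3 WT, and 192 and 188 CPM in Virma cKO, against 256 and 255 CPM in Virma WT. Wdr12 held 77.2 and 76.0 CPM in Mettl3 cKO, against 87.7 and 84.1 CPM in Mettl3 WT, and 84.3 and 83.0 CPM in Virma cKO, against 101 and 105 CPM in Virma WT. No Virma cKO library reached a Virma WT library for any of the 3, but these groups did not overlap for 84.5% of all genes either. The Mettl3 groups overlapped for Bop1 and Pes1, and did not overlap for 75% of all genes. In Virma cKO Bop1 fell by 0.69 ± 0.06 (edgeR, adjusted p = 2.24e-09), Pes1 by 0.43 ± 0.05 (adjusted p = 2.69e-08) and Wdr12 by 0.30 ± 0.06 (adjusted p = 0.000136). In Mettl3 cKO Bop1 (0.05 ± 0.05) and Pes1 (0.05 ± 0.04) were not called by edgeR (adjusted p = 0.438 and 0.202) and Wdr12 fell by 0.17 ± 0.05 (adjusted p = 0.00623). With the length and GC trend removed, the Mettl3 values were −0.19 for Bop1 (edgeR, adjusted p = 0.0025) and 0.17 for Wdr12 (0.00568). The length used for Wdr12 was 11955 bases of merged annotated exons, which may not describe the transcript present. The control matters for Bop1, which stood at −0.33 ± 0.05 in Mettl3 cKO against Virma WT (edgeR, adjusted p = 3.65e-06). Of the 50-base windows of Pes1, 21% also occur in other genes.

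The remaining 6 factors of 60S assembly were Noc2l, Noc3l, Nop16, Rrp1, Rrp1b and Rrp8. Nop16 (0.53 ± 0.05), Rrp8 (0.45 ± 0.07), Rrp1 (0.39 ± 0.03), Rrp1b (0.31 ± 0.04) and Noc2l (0.26 ± 0.03) rose in Mettl3 cKO. In Virma cKO Rrp1b (−0.26 ± 0.05), Noc2l (−0.14 ± 0.04) and Rrp1 (−0.11 ± 0.04) fell, and Nop16 (−0.11 ± 0.06) and Rrp8 (0.18 ± 0.08) were not called. Rrp8 was called higher there under several alternatives, among them scaling by total count (0.31) and the length and GC trend removed (0.19). Nop16 was called lower there with 8 separate libraries (−0.11) or with the line fitted on its own (−0.13). The fall of Rrp1 was lost with DESeq2 (adjusted p = 0.0614), without replicate 1 of Virma cKO (edgeR, 0.0546) or without replicate 2 of Virma WT (0.0679), and its value was 0.02 with scaling by total count. Noc3l, the partner of Noc2l, was called in neither knockout in the main fit. Against Virma WT, Noc3l was lower in Mettl3 cKO (−0.49 ± 0.05, edgeR, adjusted p = 2.54e-08). In Virma cKO (0.13 ± 0.06) it was called higher under some alternatives, among them scaling by total count (0.26) and 8 separate libraries (0.13). Exons of the opposite-strand gene Samd11 cover 20.9% of the exonic length of Noc2l, so their reads cannot be told apart there.

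Ncl (nucleolin) and Npm1 (nucleophosmin), the abundant multifunctional proteins of the nucleolus, moved in opposite directions, and each did so in both knockouts. Ncl held 6199 and 6326 CPM in Mettl3 cKO, against 4334 and 4325 CPM in Mettl3 WT, and 6903 and 6966 CPM in Virma cKO, against 5451 and 5432 CPM in Virma WT. Npm1 held 2534 and 2459 CPM in Mettl3 cKO, against 2848 and 2815 CPM in Mettl3 WT, and 2381 and 2389 CPM in Virma cKO, against 3214 and 3002 CPM in Virma WT. The groups of both genes did not overlap, as for 75% of all genes in the Mettl3 line and 84.5% in the Virma line. Ncl was 1.45-fold higher in Mettl3 cKO (0.53 ± 0.02, edgeR, adjusted p = 2.07e-15) and 1.27-fold higher in Virma cKO (0.35 ± 0.03, adjusted p = 7.95e-11). Npm1 fell by 0.18 ± 0.03 in Mettl3 cKO (edgeR, adjusted p = 5.53e-06) and by 0.38 ± 0.03 in Virma cKO (adjusted p = 1.52e-09). Of the 50-base windows of Npm1, 40.9% also occur in 10 other genes, so its count is uncertain, and the span of Ncl holds 3 snoRNA genes on the same strand. Per kilobase of exon, Npm1 had the highest level of the 42 genes with a length (937 CPM per kb in Mettl3 cKO and 1062 in Mettl3 WT) and Ncl the next (615 CPM per kb in Mettl3 cKO and 425 in Mettl3 WT). The length is that of all annotated exons of a gene merged, 10188 bases for Ncl and 2665 for Npm1. The main transcript may be shorter, so the order of Npm1 and Ncl depends on the length used, and in CPM Ncl was higher. Levels per kilobase at the low end were those of Utp14b (4.03 CPM per kb in Mettl3 cKO and 7.56 in Mettl3 WT) and Utp25 (6.06 CPM per kb in Mettl3 cKO and 4.10 in Mettl3 WT).

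**Figure D3:**
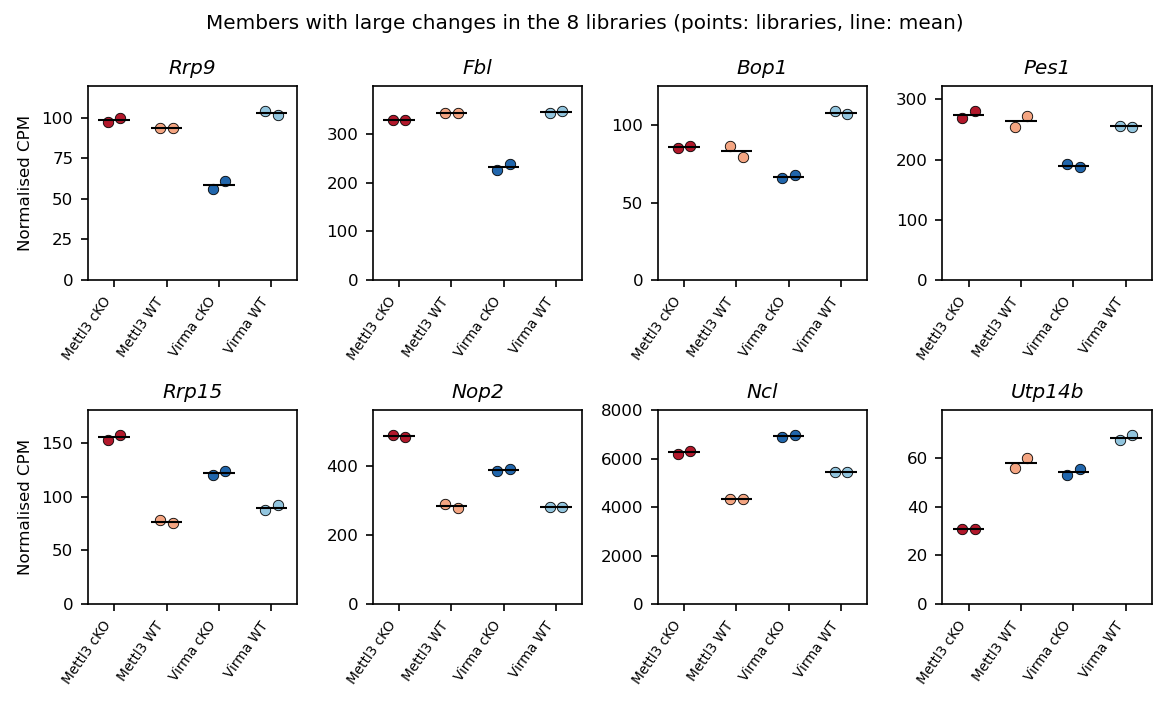
Normalised CPM (y axis, from 0) of 8 genes with large changes in each library, with points for libraries and a line for the group mean. Rrp9, Fbl, Bop1 and Pes1 were lowest in Virma cKO, and Bop1 was highest in Virma WT (109 and 107 CPM). Rrp15, Nop2 and Ncl were high in both cKO groups, and Utp14b was lowest in Mettl3 cKO (31.1 and 30.9 CPM).

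The next question is whether the knockouts differed in their effect, tested as the Virma effect minus the Mettl3 effect in the same model. For 27 of the 44 genes the Virma effect was lower, and for 1, Utp14b, it was higher, where 21.2% of all genes were lower and 17.9% higher. Without replicate 2 of Mettl3 WT, 3 genes were higher. The median difference was −0.30 over the set and −0.00 over all genes. With scaling by total count the split was 23 lower and 6 higher and the median −0.20. Rrp9 differed most (−0.87 ± 0.08, edgeR, adjusted p = 2.43e-09), before Bop1 (−0.74 ± 0.08, adjusted p = 1.08e-07), Nop10 (−0.69 ± 0.11, adjusted p = 2.56e-05) and Nop9 (−0.67 ± 0.08, adjusted p = 7.79e-07). Utp14b fell more in Mettl3 cKO, and its difference was 0.57 ± 0.10 (edgeR, adjusted p = 5.18e-05). By role, 11 of 13 genes of 60S assembly had the lower Virma effect, 8 of 17 of the small subunit processome group, 4 of 5 snoRNP proteins, 2 of 7 RNA polymerase I subunits (Polr1c and Polr1d), and both Ncl and Npm1. For Polr1c the difference was −0.15 and not called after length and GC correction (edgeR, adjusted p = 0.084). Polr1b (−0.17 ± 0.07, edgeR, adjusted p = 0.0709) and Polr1f (0.04 ± 0.10, adjusted p = 0.804) showed no difference past the threshold, and neither p shows that the effects were equal.

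**Figure D4:**
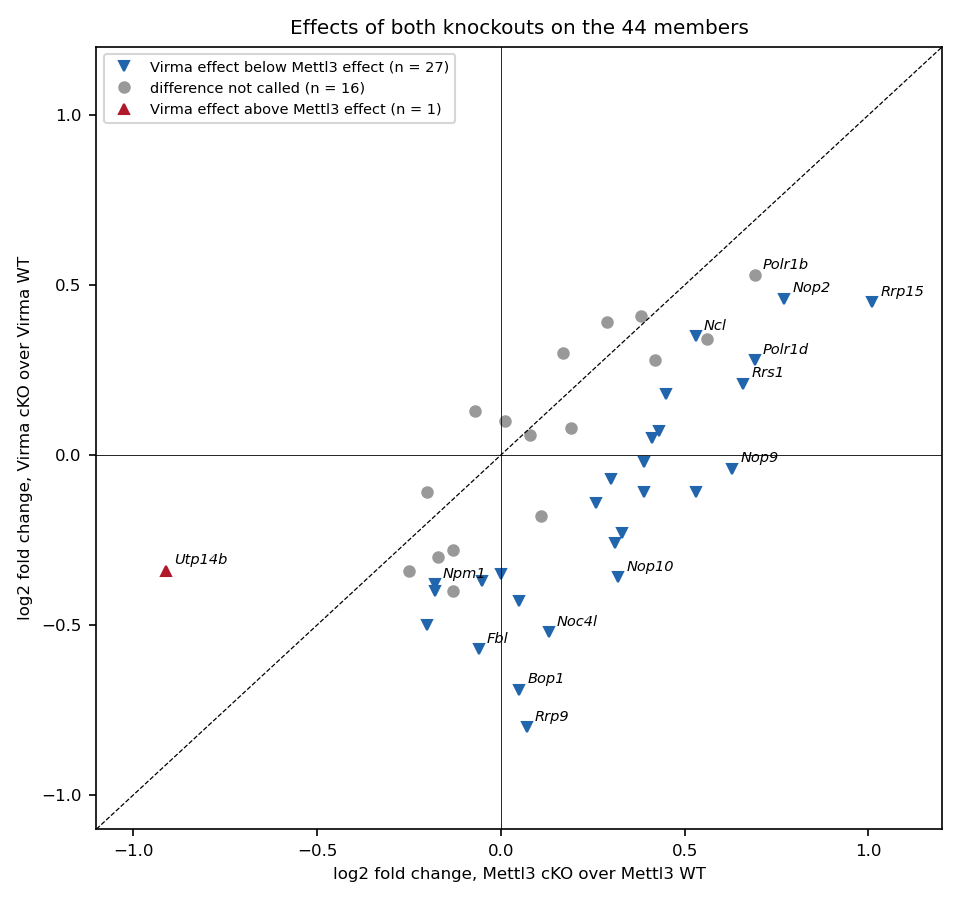
Log2 fold change in Virma cKO over Virma WT (y axis) against that in Mettl3 cKO over Mettl3 WT (x axis) for the 44 genes, with the dashed line marking equal effects. Triangles pointing down mark the 27 genes with a lower Virma effect, all of them under the line, and the triangle pointing up marks Utp14b.

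Each effect rests on its own control pair, and the controls differed from each other. Of the 44 genes 29 were higher and 2 lower in Virma WT than in Mettl3 WT, with a median of 0.18, against 0.03 over all genes, of which 25.4% were higher and 22.2% lower. Their libraries did not overlap for 35 of the 44, as for 71.8% of all genes. With either 1 of the Virma WT libraries left out, 1 gene was lower. Rrs1 (0.53 ± 0.05, edgeR, adjusted p = 3.23e-09), Rrp8 (0.44 ± 0.07, adjusted p = 9.57e-06) and Utp20 (0.44 ± 0.03, adjusted p = 8.12e-11) were the furthest above, and Polr1a (−0.26 ± 0.03, adjusted p = 1.10e-07) was the furthest below. This comparison shares the Mettl3 WT libraries with the Mettl3 effect and the Virma WT libraries with the Virma effect. A higher value in Virma WT than in Mettl3 WT lowers the difference of effects by the same amount, and differences between the lines other than the knockout cannot be told apart from it in that value.

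Genes of the same pathway outside the symbol rule were counted from lists. Over all genes 27.1% rose and 28% fell in Mettl3 cKO, and 26.2% rose and 26.1% fell in Virma cKO. Of 32 further small subunit processome genes, 19 rose and 3 fell in Mettl3 cKO (median 0.14), and 3 rose and 17 fell in Virma cKO (median −0.14). Bysl rose most in Mettl3 cKO (0.91 ± 0.04, edgeR, adjusted p = 7.61e-15), and Tbl3 fell most in Virma cKO (−0.76 ± 0.07, adjusted p = 9.92e-10), before the acetyltransferase Nat10 (−0.72 ± 0.05, adjusted p = 6.44e-11). Of 40 further 60S assembly and export genes, 21 rose and 7 fell in Mettl3 cKO (median 0.15), and 8 rose and 23 fell in Virma cKO (median −0.20). Mrto4 led the rises in Mettl3 cKO (0.93 ± 0.04, edgeR, adjusted p = 6.48e-15), and Gnl3l fell in Mettl3 cKO (−0.76 ± 0.06, adjusted p = 5.81e-11) and in Virma cKO (−0.71 ± 0.07, adjusted p = 5.48e-09). With scaling by total count the Virma counts were 5 higher and 11 lower for the processome list and 12 higher and 12 lower for the 60S list. Against Virma WT the balance in Mettl3 cKO turned, with 11 higher and 14 lower (median −0.05) for the processome list and 10 higher and 15 lower (median −0.03) for the 60S list.

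Around snoRNPs, 8 box C/D assembly factors had 3 rises and no fall in Mettl3 cKO, and 1 rise and 5 falls in Virma cKO. After length and GC correction 3 were higher and 4 lower in Mettl3 cKO. Nolc1, a snoRNP chaperone, rose by 0.42 ± 0.03 in Mettl3 cKO (edgeR, adjusted p = 5.17e-12) and fell by 0.47 ± 0.03 in Virma cKO (adjusted p = 2.75e-11). Of 5 box H/ACA partners of Nop10, 2 rose and 1 fell in Mettl3 cKO, and 1 rose and 2 fell in Virma cKO (3 and 1 with scaling by total count). Dkc1, the pseudouridine synthase, fell by 0.36 in both (SE 0.05 in Mettl3 cKO, edgeR, adjusted p = 2.52e-06, and SE 0.06 in Virma cKO, adjusted p = 3.61e-05), while its partner Nhp2 rose by 0.86 ± 0.03 in Mettl3 cKO (adjusted p = 1.01e-15). Of 13 exosome genes and cofactors tested, 5 rose and 6 fell in Mettl3 cKO, and 1 rose and 9 fell in Virma cKO. The splits were 4 higher and 3 lower in Mettl3 cKO after length and GC correction, and 3 higher and 5 lower in Virma cKO with scaling by total count.

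Around RNA polymerase I, 3 of 9 initiation and termination factors rose and 3 fell in Mettl3 cKO, and 1 rose and 3 fell in Virma cKO (1 and 1 with scaling by total count). Against Virma WT, 2 were higher and 6 lower in Mettl3 cKO. Taf1c, of the promoter selectivity complex, rose in Mettl3 cKO (0.76 ± 0.07, edgeR, adjusted p = 2.53e-09) and in Virma cKO (0.36 ± 0.09, adjusted p = 0.00227). Of the 5 small subunits shared by the RNA polymerases, 2 rose and none fell in Mettl3 cKO, and 1 rose and 2 fell in Virma cKO, with Polr2l at 1.49 ± 0.08 in Mettl3 cKO (edgeR, adjusted p = 3.91e-13). Subunits of RNA polymerase III (11 listed) and factors of 40S export and maturation (11 listed) each had 4 rises and 2 falls in Mettl3 cKO and 2 rises and 4 falls in Virma cKO. Over all genes 27.1% rose and 28% fell in Mettl3 cKO, and 26.2% rose and 26.1% fell in Virma cKO. No list was tested as a set against these shares. Against Virma WT the Mettl3 cKO splits were 5 higher and 4 lower for RNA polymerase III and 4 higher and 4 lower for 40S export. There 29.3% of all genes were higher and 29.2% lower. Scaling by total count moves all Virma values up together. With it the Virma cKO splits were 3 higher and 2 lower for RNA polymerase III and 5 higher and 2 lower for 40S export. The shares of all genes under this scaling are not given here, so nothing is read from these splits.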

How the data were processed

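Total RNA from the 8 libraries was sequenced, and 2 library kits are named in the labels' protocols, with no statement of which library had which. The deposited table holds whole-number counts per gene as the authors made them. Build mm39 and the tools STAR 2.7.11b, Subread, DESeq2, Trim Galore and FastQC 0.12.1 are named, with no role or order, per the submitters' processing notes. Strand setting, handling of reads that map to several places and annotation were not given in the sources used here, so genes with near-identical copies or opposite-strand partners are uncertain. No column was left unused.

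The counts were tested with edgeR 4.0.16 (R 4.3.3, limma 3.58.1), with TMM scaling, filterByExpr, robust quasi-likelihood dispersions and Benjamini-Hochberg adjustment over 14229 genes. The 7 samples of all 4 groups, with the Virma cKO pair averaged and rounded, shared one model with 3 residual degrees of freedom. DESeq2 1.42.0 was an alternative. Others were scalings, filters, removal of gene classes or of a loess trend with length and GC content, single-line fits, another control and leaving out each library. The scripts were tested on simulated data. The genes and lists were chosen with earlier results of these data known, and roles are textbook background. By rule, values per library are given for up to 6 genes per direction and knockout, up to 4 per direction of the difference, all Polr1 subunits, the PeBoW complex, Fbl, Ncl, Npm1, Nop56 and Nop58. Utp14a and Cd3eap were added after their values were seen. From the pathway lists, examples come from the 3 called genes with the largest absolute change. Exon lengths, GC content, overlaps and shared 50-base windows came from GENCODE M21, which matched 42 of the 44 genes, and upstream windows from RefSeq on GRCm38.p6. Replicate numbers were not used to pair the samples in the main model. Figures were drawn with matplotlib 3.10.9.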

Additional observations from a re-analysis of the deposited data

Results flagged for a closer look

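The effects of the knockouts differed for 28 of the 44 genes by the test of the difference itself (27 lower and 1 higher for Virma), and 5 are listed here. The Virma effect minus the Mettl3 effect was −0.87 for Rrp9, −0.74 for Bop1, −0.69 for Nop10, −0.67 for Nop9 and 0.57 for Utp14b, on the log2 scale. Rrp9 and Bop1 fell in Virma cKO and were not called in Mettl3 cKO, Nop10 had opposite signs, Nop9 rose in Mettl3 cKO alone, and Utp14b fell in both and more in Mettl3 cKO. Virma WT stood above Mettl3 WT by 0.13 for Rrp9, 0.38 for Bop1, 0.25 for Nop9 and 0.24 for Utp14b, and these control differences enter the difference of effects.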

How the results depend on the processing

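Of the 44 genes, 22 had no change of call and no turned sign of a called value in Mettl3 cKO under the alternatives run, 28 in Virma cKO, 25 for the difference of effects and 32 between the controls. Turned signs are given where the value was called in at least one of the fits compared, and signs of values near 0 called in neither also turned. The length and GC trend used all annotated exons of a gene merged and the GC content of its longest transcript, which may not describe the transcripts present. The length was 10758 bases for Nop58 and 11955 for Wdr12, against a median of 3698 over the set. With this trend removed, the sign turned in Mettl3 cKO for Nop58 (0.12), Wdr12 (0.17), Rrp9 (−0.21) and Bop1 (−0.19), and for the difference in Nop58 (−0.33) and Utp20 (−0.17). With Virma WT as the control of Mettl3 cKO it turned for Noc4l (−0.15), Utp20 (−0.43), Utp15 (−0.05) and Bop1 (−0.33). With scaling by total count, which moves all Virma values up together, it turned in Virma cKO for Nop58 (0.01) and Rrp1 (0.02). The cause was not tested. The count of genes with a higher Virma effect, 1, was 2 with 8 separate libraries, DESeq2 size factors, a CPM minimum of 1 or the length and GC trend removed, and 6 with scaling by total count. It was 3 with the replicate number as a block over 8 separate libraries. That fit had 26 rises and 9 falls in Mettl3 cKO and 16 rises and 24 falls in Virma cKO, against 26 and 8 and 15 and 24 with 8 separate libraries and no block. The difference between replicates 1 and 2 of a group was correlated over genes with that of each other group, and the values ran between −0.031 and 0.075. They gave no sign of pairing by number, but such differences hold sampling noise, so a shared batch is not excluded. The 2 genes lower in Virma WT than in Mettl3 WT became 1 with both Virma pairs as 1 sample each, DESeq2 or no filter. With DESeq2, 3593 of all genes differed in effect, against 5569 with edgeR, and 4493 between the controls, against 6773.

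Leaving out 1 library at a time, 23 to 26 of the 44 rose and 6 to 8 fell in Mettl3 cKO, 10 to 14 rose and 19 to 22 fell in Virma cKO, 25 to 30 had a lower and 1 to 3 a higher Virma effect (3 without replicate 2 of Mettl3 WT), and 24 to 29 were higher and 1 to 3 lower in Virma WT than in Mettl3 WT. Between the controls the lower count was 1 without replicate 1 or replicate 2 of Virma WT. Over all genes 6179 to 8208, 6036 to 8674, 4399 to 6656 and 4923 to 7334 were called. The group sizes of 2 limit precision, and a lone library is assumed to vary like the others.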
